A study of Mus musculus with 16 samples.

Results

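The mouse mitochondrial chromosome carries 37 genes, which were taken here as every gene in the count table whose name begins with mt-, 37 of the 54532 genes listed. They comprise 13 mRNAs, 2 rRNAs and 22 tRNAs, and these 3 classes were treated apart. Their RNA was measured by RNA-seq of hippocampal tissue from 16 mice in 4 groups of 4 mice, namely wild-type (WT) mice and Tau P301S mice (hTau.P301S), each given plain water or water containing 6 mM nicotinamide riboside (NR), a precursor of NAD+. Per the labels the mice were 12 months old at the start, were treated for 3 months and were 15 months old at the end; the study's own text gives different ages. The hTau.P301S mice carry a mutant human Tau transgene under the Thy1 promoter, which is active in neurons, so both transgenic groups share this model and both NR groups share the same supplement. The comparisons address whether the transgene, and NR given to mice of either genotype, go with a different level of mitochondrially encoded RNA.

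Both strands of the circular mitochondrial chromosome are transcribed into long precursors, and the tRNAs lie between the other genes so that their excision frees the mRNAs and rRNAs. The 13 mRNAs encode core subunits of the oxidative phosphorylation complexes, mt-Nd1 to mt-Nd6 and mt-Nd4l those of complex I, mt-Cytb that of complex III, mt-Co1 to mt-Co3 those of complex IV and mt-Atp6 and mt-Atp8 those of ATP synthase. The rRNAs mt-Rnr1 and mt-Rnr2 form the small and the large subunit of the mitochondrial ribosome, and hippocampal neurons depend on this system for much of their ATP. Libraries were prepared from RNA selected by oligo(dT), so that counts of mitochondrial rRNAs and tRNAs come from whatever part of these RNAs was captured and do not measure their whole pools. In bulk tissue, fewer cells of a type and less RNA per cell cannot be told apart.

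Total counts ran from 16490261 to 21915362 per mouse, and 1 library stood apart. hTau.P301S replicate 1 had 19467 genes with a count, against 22199 or more in each of the other 15 mice, and a TMM scaling factor of 0.685 against 0.955 to 1.10. Counts of genes and fold changes that involve the hTau.P301S group are therefore given with and without this mouse. Levels are given as CPM, counts scaled to a common library size with TMM factors, in which the low factor of this library raises its values. For the mitochondrial genes, positions against the other mice and overlaps between groups were also computed on unscaled CPM, and are given where they differ. Nuclear copies, cell type markers and long noncoding RNAs were placed on scaled CPM alone.

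The tRNAs were uneven in their counts. The 14 tRNA genes on the plus strand held 10.1% of all tRNA counts and the 8 on the minus strand held 89.9%. Of these, mt-Tp, mt-Tc and mt-Tn together held 71.4% to 96.2% of a mouse's tRNA counts (median 77.8%, n = 16). The sequences below are those of the 3 most counted tRNAs, followed by mt-Tl2, mt-Te and mt-Ty, the 3 that were lower at unadjusted p under 0.05 in hTau.P301S + NR relative to WT + NR. They are printed 5′ to 3′ as in the GENCODE M21 transcripts (GRCm38), with the anticodon in capitals; a script took the anticodon as the middle of the 7-base loop closed by a stem of 5 base pairs.
mt-Tp: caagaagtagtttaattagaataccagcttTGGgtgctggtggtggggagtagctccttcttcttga
mt-Tc: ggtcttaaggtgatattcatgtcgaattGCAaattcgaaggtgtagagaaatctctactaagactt
mt-Tn: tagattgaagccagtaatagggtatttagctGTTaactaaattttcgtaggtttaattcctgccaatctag
mt-Tl2: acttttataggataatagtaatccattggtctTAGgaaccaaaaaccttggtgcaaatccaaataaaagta
mt-Te: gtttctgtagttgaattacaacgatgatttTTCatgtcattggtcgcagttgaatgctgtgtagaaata
mt-Ty: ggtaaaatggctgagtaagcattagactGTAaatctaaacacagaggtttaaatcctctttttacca
The gene of mt-Tp, the proline tRNA, lies on the minus strand of chromosome M from 15356 to 15422, just beyond mt-Cytb. The genes of mt-Tn (asparagine, 5089 to 5159), mt-Tc (cysteine, 5192 to 5257) and mt-Ty (tyrosine, 5260 to 5326) are neighbours on the minus strand between mt-Nd2 and mt-Co1. The gene of mt-Te (glutamate, 14071 to 14139) lies on the minus strand directly before mt-Nd6 in the direction of that strand. mt-Tl2 (a leucine tRNA, 11671 to 11741) lies on the plus strand directly before mt-Nd5.

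Several mRNAs could not be separated fully from nuclear copies of the same sequence. A run of unprocessed pseudogenes on the minus strand of chromosome 1 (24611535 to 24616197, GRCm38) repeats the mitochondrial genes from mt-Co1 to mt-Nd4. Of the 50-base windows of the annotated transcripts, 100% of those of mt-Co2, 99.9% of mt-Co3, 99.5% of mt-Atp6, 98.8% of mt-Nd4l, 98.0% of mt-Nd3, 62.2% of mt-Nd4 and 51.1% of mt-Co1 occurred exactly in a nuclear transcript, against 8.19% of mt-Nd2, 7.61% of mt-Nd5, 1.04% of mt-Rnr2 and 0% for the other genes. Sequence outside annotated transcripts was not scanned, such as the 233 bases between Gm10925 and Gm28661, the copies of mt-Atp6 and mt-Co2. In the mitochondrial order, mt-Tk and most of mt-Atp8 lie between these genes. The 0% of mt-Atp8 and of the tRNAs within this run thus does not show that they lack a nuclear match. The 2 stretches below show how close the copies are, with the bases that differ in capitals. The substitution in mt-Nd3 is T3C, and those in mt-Co1 are T1056A, C1057T, A1059G, A1060G, C1062A and A1066T, with the mitochondrial base first and positions counted from 1 at the 5′ end of the mitochondrial gene.
mt-Nd3 bases 1 to 60: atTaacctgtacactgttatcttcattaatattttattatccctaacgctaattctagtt
Gm28438: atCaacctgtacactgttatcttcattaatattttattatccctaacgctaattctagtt
mt-Co1 bases 1054 to 1113: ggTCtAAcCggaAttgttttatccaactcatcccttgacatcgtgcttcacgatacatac
Gm29216: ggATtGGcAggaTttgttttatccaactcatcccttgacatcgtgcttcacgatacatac
These were the only differences over 345 aligned bases of mt-Nd3 and 492 of mt-Co1, and the copies of mt-Co2 (Gm28661), mt-Atp6 (Gm10925) and mt-Co3 (Gm28437) had none. Over the 15 mice without hTau.P301S replicate 1, the CPM of the copy came to 67.2% of that of mt-Co2, 80.2% of mt-Atp6 and 62.1% of mt-Co3 on average, but to 6.98% of mt-Nd3, 0.750% of mt-Nd4 and 0.145% of mt-Co1. How reads matching several places were shared out is not given in the sources used here, so the levels of mt-Co2, mt-Co3, mt-Atp6, mt-Nd3 and mt-Nd4l are uncertain. The level of mt-Atp8 may be uncertain in the same way. With gene and copy summed, the coefficient of variation over the 15 mice went from 54.7% to 36.9% for mt-Co2. It went from 42.0% to 28.8% for mt-Atp6 and from 41.6% to 27.8% for mt-Co3. The copies alone had 34.0%, 18.5% and 14.6%, in the same order. Adding a less variable quantity lowers the coefficient in any case, so this fall does not show how reads were shared out.

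Of the 37 genes, 31 passed the filter on low counts over all 16 mice: all 13 mRNAs, both rRNAs and 16 tRNAs. The phenylalanine tRNA mt-Tf had 0 counts in all 16 mice, which allows a level of up to 0.0102 CPM, unscaled, over all libraries together. The other tRNAs that did not pass had 67 counts (mt-Tt), 23 (mt-Tv), 4 (mt-Ts1), 2 (mt-Td) and 2 (mt-Tk) over the 16 mice. Among those that passed, mt-Ti and mt-Ta had no count in WT replicate 1, and mt-Tq had none in hTau.P301S replicate 1. Libraries are not stated to be stranded, so reads could not be assigned to a strand. This holds where genes overlap, as mt-Nd5 and mt-Nd6 do by 14 bases on opposite strands, and also elsewhere. Counts of a gene, including mt-Nd6 and the minus-strand tRNAs, may therefore include RNA from the other strand.

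Per kilobase of gene, mt-Co1 was the most abundant mitochondrial RNA in WT mice, at 11569 ± 2014.5 CPM per kb (SD, n = 4), above every value of the next gene. Below it came mt-Cytb at 6403 ± 1116 and mt-Nd1 at 5526 ± 941 CPM per kb, whose ranges overlapped. A group with overlapping neighbours followed, from mt-Nd2 (3110 ± 415) through mt-Rnr1 (3082 ± 507), mt-Rnr2 (2727 ± 584), mt-Nd4 (2496 ± 308) and mt-Nd5 (2147 ± 225) to mt-Nd6 (2002 ± 183 CPM per kb), the only mRNA gene on the minus strand. After a gap without overlap, mt-Co2 (157 ± 52.4), mt-Atp6 (153 ± 76.9), mt-Nd3 (133 ± 22.5), mt-Co3 (104 ± 51.4) and mt-Nd4l (57.1 ± 35.4) formed a low group, and mt-Atp8 was lowest at 6.65 ± 3.94 CPM per kb. The 7 upper mRNAs (mt-Co1, mt-Cytb, mt-Nd1, mt-Nd2, mt-Nd4, mt-Nd5 and mt-Nd6) held 98.9% to 99.5% of the mRNA counts in the 15 mice without hTau.P301S replicate 1, and mt-Co1 alone held 42.0% ± 2.92 of them in WT mice (SD, n = 4). All of the low group but mt-Atp8 are genes with near-complete matches in annotated nuclear transcripts, and the part of this in their low level was not tested. Whether mt-Atp8 has a nuclear match could not be seen, as sequence between the annotated copies was not scanned.

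**Figure D1:**
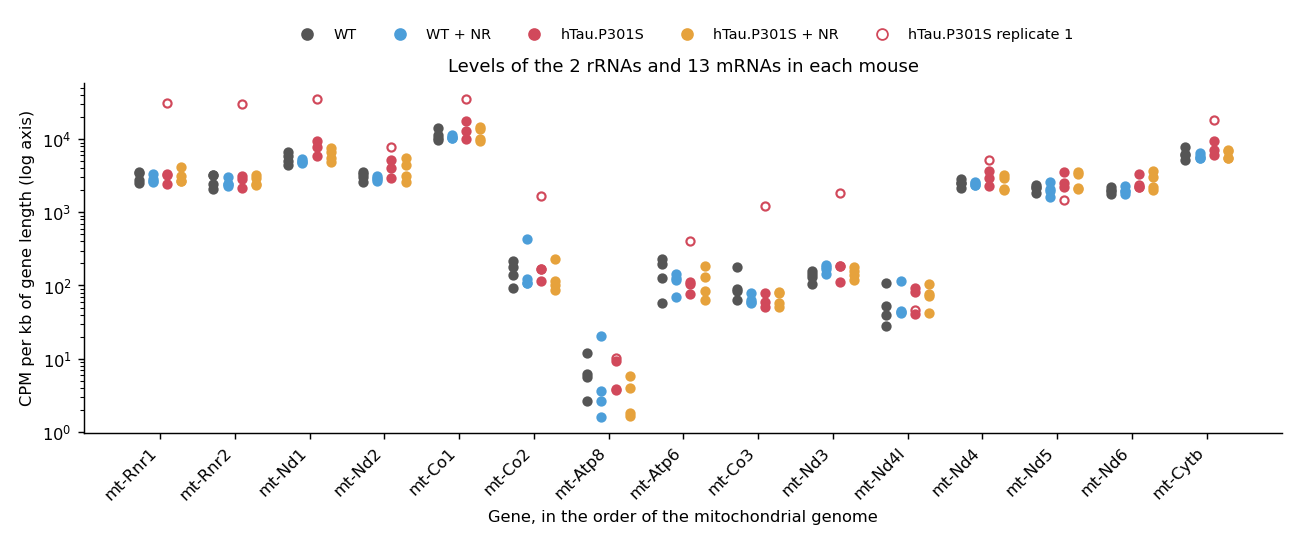
Level of the 2 rRNAs and 13 mRNAs in genome order, in TMM-scaled CPM per kilobase of gene on a log axis, with 1 point per mouse coloured by group. The 7 upper mRNAs and both rRNAs lie far above mt-Co2, mt-Atp6, mt-Nd3, mt-Co3 and mt-Nd4l, and mt-Atp8 is lowest; hTau.P301S replicate 1 lies above the other mice for both rRNAs and mt-Nd1 and below them for mt-Nd5.

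As a share of all counts, the 13 mRNAs took 6.01% ± 2.21 in hTau.P301S, 4.71% ± 0.891 in hTau.P301S + NR, 4.47% ± 0.718 in WT and 4.09% ± 0.250 in WT + NR mice (SD, n = 4 each). The single values, replicates 1 to 4 in order, were 9.01, 4.01, 4.77 and 6.27% in hTau.P301S mice, 5.32, 4.04, 5.63 and 3.86% in hTau.P301S + NR, 4.19, 5.51, 4.31 and 3.86% in WT and 3.87, 3.88, 4.25 and 4.36% in WT + NR mice. All groups overlapped, and without replicate 1 the hTau.P301S mean was 5.02% ± 1.15 (n = 3).

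The rRNAs took 1.85% ± 2.31 of counts in hTau.P301S, 0.756% ± 0.140 in hTau.P301S + NR, 0.763% ± 0.157 in WT and 0.706% ± 0.114 in WT + NR mice. The higher hTau.P301S mean rested on replicate 1, which stood at 5.31% while the other 3 mice stood at 0.577, 0.727 and 0.772%; without it the mean was 0.692% ± 0.102 (n = 3). The tRNAs took 0.0460% ± 0.0454 in hTau.P301S, 0.0196% ± 0.00154 in hTau.P301S + NR, 0.0183% ± 0.00344 in WT and 0.0210% ± 0.00167 in WT + NR mice, and the hTau.P301S mean went to 0.0235% ± 0.00554 without replicate 1, which stood at 0.114%. Counting error was far smaller than these differences, as the 95% Wilson interval of the rRNA share in replicate 1 ran from 5.30% to 5.32% (counting error only). No class of RNA separated any pair of groups.

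**Figure D2:**
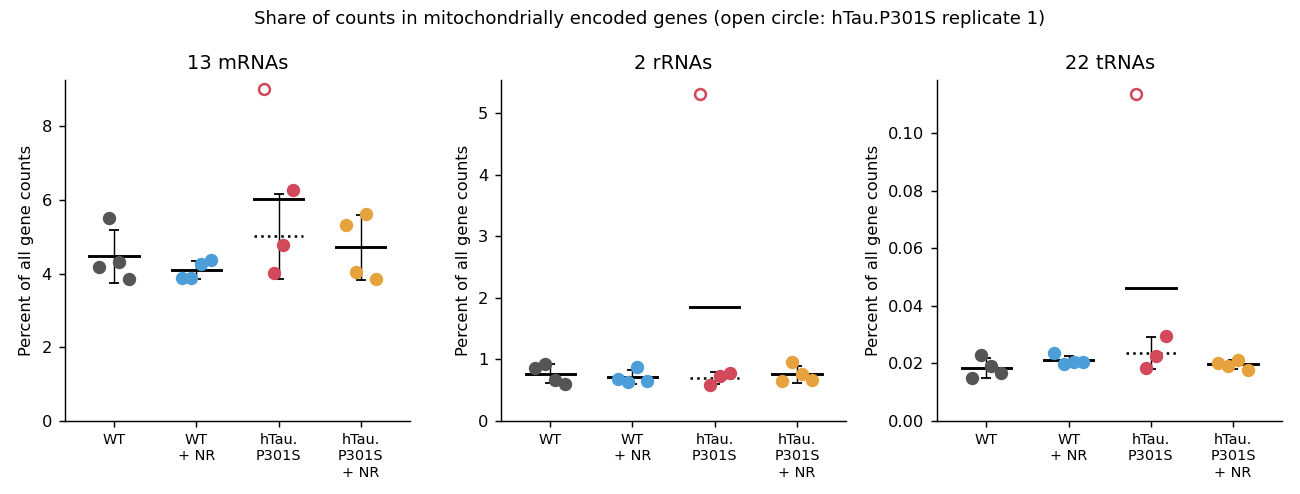
Share of all gene counts, in percent, taken by the 13 mitochondrial mRNAs, the 2 rRNAs and the 22 tRNAs in each of the 16 mice, by group. Points are mice and the open circle is hTau.P301S replicate 1; solid lines are means of 4 mice, the dotted line the hTau.P301S mean without replicate 1, and bars the SD (for hTau.P301S, of the 3 mice without replicate 1). The open circle lies at 9.01%, 5.31% and 0.114%, above every other mouse in each panel.

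hTau.P301S replicate 1 did not have more of all mitochondrial RNAs alike. Relative to the mean of the other 3 hTau.P301S mice, its CPM was 10.4 times as high for mt-Rnr1, 11.1 times for mt-Rnr2, 4.65 times for mt-Nd1, 2.60 times for mt-Co1, 2.40 times for mt-Cytb, 1.97 times for mt-Nd2 and 1.78 times for mt-Nd4, but 0.914 times for mt-Nd6 and 0.532 times for mt-Nd5. Among these, the plus-strand ratio was highest for the rRNAs and mt-Nd1, at the start of the gene order, and lowest for mt-Nd5 near its end. It did not fall steadily, as mt-Co1 stood above mt-Nd2, and mt-Cytb, which lies last, above mt-Nd5. The genes mt-Co2, mt-Co3 and mt-Nd3, which lie between mt-Co1 and mt-Nd4, are not among these and had high ratios. Of the 5 mRNAs with near-complete nuclear matches, 4 stood high in this library, at 19.4 times for mt-Co3, 11.3 times for mt-Nd3, 11.2 times for mt-Co2 and 4.24 times for mt-Atp6, while mt-Nd4l stood at 0.647 times and within the range of the other 15 mice. The copies of mt-Co3 and mt-Nd3 were also high in it, at 346 CPM for Gm28437 (24.5 to 42.3 in the other 15 mice) and 57.3 CPM for Gm28438 (2.65 to 4.48). So were Gm10925, the copy of mt-Atp6, at 623 CPM (42.5 to 80.1), Gm28661 of mt-Co2 at 332 (45.1 to 130) and Gm29216 of mt-Co1 at 169 (14.7 to 41.4). Gm28439, the copy of mt-Nd4, was at 25.3 CPM, within the 18.4 to 40.1 of the others on this scaled measure. Its raw counts were 296 in this library, against 378 to 735 in the others. Gm10925 came to 224% of the CPM of mt-Atp6 in this library, against 36.7% to 126% in the other 15 mice. Summed, mt-Atp6 and Gm10925 stood at 902 CPM, against 85.4 to 213.

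The tRNAs of this library were also uneven. The minus-strand mt-Tn, mt-Tc and mt-Tp were 11.9, 9.58 and 6.48 times as high as in the other 3 hTau.P301S mice. The plus-strand mt-Tr, mt-Th, mt-Ts2 and mt-Tl2, which lie between mt-Nd3 and mt-Nd5, stood at 0.179, 0.159, 0.144 and 0.0161 times. Against all 15 other mice, 9 of the 13 mRNAs lay above and 1 below (mt-Nd5), both rRNAs lay above, and of the 22 tRNAs 9 lay above and 5 below (mt-Tq, mt-Tr, mt-Th, mt-Ts2 and mt-Tl2). On unscaled CPM 8 mRNAs lay above and 2 below (mt-Nd5 and mt-Nd6), with 8 tRNAs above and 5 below. Many nuclear genes were also extreme in this library, 31.8% of the 17555 genes kept lying above and 35.1% below all other mice, against 61.3% and 19.4% of the 31 mitochondrial genes kept. On unscaled CPM 3490 of the 17555 lay above and 8694 below.

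**Figure D3:**
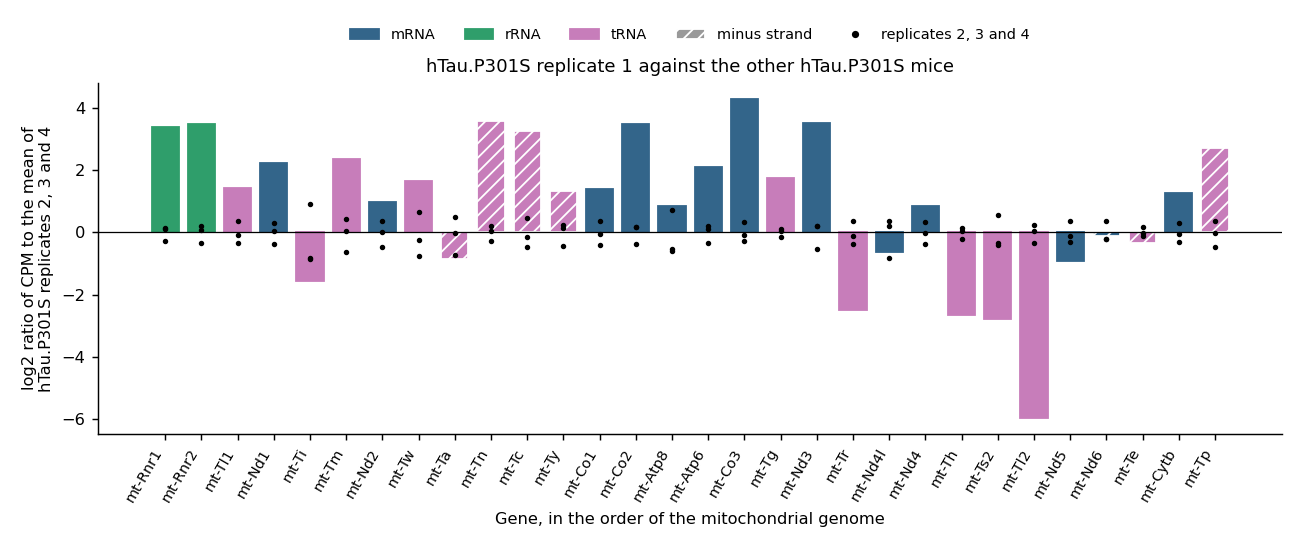
log2 ratio of the TMM-scaled CPM of each mitochondrial gene in hTau.P301S replicate 1 to the mean of hTau.P301S replicates 2 to 4 (bars, hatched for minus-strand genes), with replicates 2 to 4 as dots, in genome order. Bars start at 0; the rRNAs stand at 10.4 and 11.1 times, mt-Nd5 stands at 0.532 times and mt-Tl2 reaches 0.0161 times, a log2 ratio of -5.95.

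Ratios within a mouse do not depend on scaling. The ratio of mt-Rnr2 to mt-Rnr1 counts was narrow, from 1.31 to 1.57 in 15 mice and 1.62 in hTau.P301S replicate 1. The ratio of mt-Nd5 to mt-Co1 ran from 0.179 to 0.292 in the 15 mice and was 0.0491 in replicate 1, whereas that of mt-Cytb to mt-Co1 ran from 0.351 to 0.472 and was 0.379 in replicate 1, within the range. The ratio of mt-Nd1 to mt-Co1 (0.265 to 0.371) was 0.625 in replicate 1, and that of rRNA to mRNA (0.123 to 0.236) was 0.589.

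Relative to WT, hTau.P301S mice had no mitochondrial gene past the threshold of adjusted p under 0.05 with an absolute log2 fold change above 0.5 (edgeR quasi-likelihood test; 0.00611% of all genes tested were called). Of the 30 genes tested, 26 were higher and 4 lower, with a median log2 fold change of 0.61 against 0.02 over all genes. At unadjusted p under 0.05, 5 were higher (3.41% of all genes) and none lower; DESeq2 called 0 and put 4 of 34 under unadjusted 0.05. Without replicate 1, 20 of 30 were higher, the median was 0.23 against -0.03 over all genes, 3 were higher at unadjusted p under 0.05 (5.16% of all genes), 0 were called (0.0832% of all genes), and DESeq2 called 0 with 6 of 33 under unadjusted 0.05.

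The sign of both rRNAs depended on replicate 1. The CPM of mt-Rnr1 was 3252, 3443, 2664 and 2414 in WT mice and 29646, 2325, 3045 and 3155 in hTau.P301S mice. That of mt-Rnr2 was 5044, 5132, 3822 and 3256 in WT mice and 47925, 3405, 4572 and 4932 in hTau.P301S mice. In both cases replicate 1 lay far above the WT mice and the other 3 mice overlapped them. The log2 fold change of mt-Rnr1 was 1.72 (SE 0.84) with all mice and -0.06 (SE 0.19) without replicate 1, and that of mt-Rnr2 was 1.84 (SE 0.87) and -0.01 (SE 0.22).

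All 13 mRNAs stood above WT with replicate 1 (median log2 fold change 0.67) and 9 of 13 were higher without it (median 0.24). The 7 upper mRNAs were higher in both settings, with a median of 0.67 with all mice and 0.35 without replicate 1, and a range of 0.22 to 0.46 without it. When hTau.P301S replicate 4 alone was left out, and replicate 1 kept, 6 were higher and 1 lower. None was called. Among hTau.P301S replicates 2 to 4, replicate 4 was the highest for all 7 upper mRNAs. No fit left out both replicate 1 and replicate 4, so the direction without both was not tested. The mRNA of the complex I subunit mt-Nd1 had a CPM of 5573, 6393, 4885 and 4304 in WT mice and 34037, 5594, 7455 and 8923 in hTau.P301S mice, so that hTau.P301S replicate 2 lay within the WT range. Its log2 fold change was 1.42 (SE 0.59, edgeR adjusted p = 0.598) with all mice and 0.46 (SE 0.22, adjusted p = 0.446) without replicate 1. The complex IV subunit mt-Co1, the most abundant, had a CPM of 15283, 22299, 17695 and 16221 in WT mice and 54481, 15623, 20069 and 27180 in hTau.P301S mice, and its log2 fold change went from 0.72 (SE 0.44) to 0.22 (SE 0.24).

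The complex I subunits mt-Nd5 and mt-Nd6 lie at the far end of the gene order. The CPM of mt-Nd5 was 3935, 3994, 4363 and 3369 in WT and 2673, 4079, 4606 and 6404 in hTau.P301S mice, with a log2 fold change of 0.18 (SE 0.30) with all mice and 0.35 (SE 0.20) without replicate 1. That of mt-Nd6, transcribed from the opposite strand, was 1041, 1015, 1164 and 935 in WT and 1233, 1152, 1160 and 1736 in hTau.P301S mice, with a log2 fold change of 0.35 (SE 0.22) and 0.37 (SE 0.19). Replicate 1 was the lowest hTau.P301S mouse for mt-Nd5, replicate 4 was the highest for both, and the groups overlapped for both genes. The complex I subunit mt-Nd3, which has a near-identical nuclear copy, stood at 36.0 to 54.5 CPM in WT mice and at 635, 39.2, 64.9 and 65.1 in hTau.P301S mice, and its log2 fold change went from 2.13 (SE 0.87, adjusted p = 0.598) to 0.27 (SE 0.22) without replicate 1.

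Among the tRNAs, the proline tRNA mt-Tp had a CPM of 86.7, 98.4, 95.7 and 76.3 in WT mice and 827, 91.9, 125 and 165 in hTau.P301S mice. The cysteine tRNA mt-Tc had 17.2, 34.7, 25.3 and 23.2 in WT mice and 396, 29.7, 37.3 and 57.0 in hTau.P301S mice. The asparagine tRNA mt-Tn had 20.8, 26.4, 20.7 and 18.5 in WT mice and 375, 25.8, 32.5 and 36.4 in hTau.P301S mice. For all 3, hTau.P301S replicate 2 lay within the WT range and the other 3 mice lay above it. The log2 fold changes of mt-Tp, mt-Tc and mt-Tn were 1.78 (SE 0.68), 2.39 (SE 0.84) and 2.46 (SE 0.88) with all mice and 0.51 (SE 0.20), 0.71 (SE 0.28) and 0.54 (SE 0.18) without replicate 1; their adjusted p from edgeR was 0.598 with all mice and 0.352 to 0.404 without. These 3 were the genes under unadjusted p 0.05 without replicate 1.

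Of the 31 genes kept, only the alanine tRNA mt-Ta had groups that did not overlap between hTau.P301S and WT (0.342 to 0.872 against 0 to 0.224 CPM; 3.45% of all genes kept lay above in this way), and it did overlap on unscaled CPM. Without replicate 1 the arginine tRNA mt-Tr joined it (1.11 to 1.85 against 0.274 to 1.05 CPM; 7.63% of all genes kept lay above in this way). Both are low-count genes, and each value rests on few reads.

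NR in hTau.P301S mice was compared with the same hTau.P301S mice that served above, so that replicate 1 entered both comparisons. No mitochondrial gene was called (0.00610% of all genes were). Of 29 genes tested, 8 were higher and 21 lower with NR, with a median log2 fold change of -0.71 against -0.03 over all genes, and 6 were lower at unadjusted p under 0.05 (7.01% of all genes): mt-Co3, mt-Nd3, mt-Tc, mt-Tn, mt-Tp and mt-Ty. DESeq2 called 0 and put 4 of 35 under unadjusted 0.05. Without replicate 1, 12 of 31 were higher and 19 lower with a median of -0.16 against 0.00057 over all genes, 0 were called (0.197% of all genes), and 2 were lower at unadjusted p under 0.05 (7.40% of all genes); DESeq2 called 0, with 2 of 34 under unadjusted 0.05.

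The rRNAs and mt-Co3, a complex IV subunit with an identical nuclear copy, had the opposite sign in this comparison when replicate 1 was left out. In hTau.P301S + NR mice the CPM of mt-Rnr1 was 2552, 3951, 2979 and 2526 and that of mt-Rnr2 was 3846, 5186, 4680 and 3686, with replicate 2 the highest for both. The log2 fold change of mt-Rnr1 was -1.70 with all mice and 0.09 without replicate 1, and that of mt-Rnr2 was -1.83 and 0.03. mt-Co3 stood at 961, 40.4, 46.2 and 62.1 CPM in hTau.P301S mice and at 61.0, 39.6, 63.2 and 45.1 in hTau.P301S + NR mice, and its log2 fold change was -2.44 (SE 1.05, edgeR adjusted p = 0.367) and 0.09 (SE 0.20).

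The 2 genes that stayed under unadjusted p 0.05 without replicate 1 were mt-Tn and the tyrosine tRNA mt-Ty. With NR, mt-Tn stood at 16.1, 23.7, 14.2 and 30.1 CPM, and its log2 fold change was -2.51 (SE 0.91) with all mice and -0.57 (SE 0.25, adjusted p = 0.274) without replicate 1. mt-Ty stood at 16.8, 4.93, 7.36 and 7.87 CPM in hTau.P301S mice and at 4.48, 3.29, 2.80 and 5.78 in hTau.P301S + NR mice, with -1.18 (SE 0.42) and -0.70 (SE 0.29, adjusted p = 0.249). Both genes overlapped between the groups, as did all 31 genes kept (11.8% of all genes kept did not overlap with all mice and 16.9% without replicate 1). mt-Tp stood at 112, 81.9, 132 and 62.3 and mt-Tc at 36.6, 39.2, 36.1 and 35.3 CPM with NR.

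In WT mice, no mitochondrial gene was called with NR (0% of all genes were). Of 30 genes tested, 18 were higher and 12 lower with a median log2 fold change of 0.10 against 0.0040 over all genes, and DESeq2 called 0 with 4 of 35 under unadjusted 0.05. At unadjusted p under 0.05 mt-Nd3 was higher (0.371% of all genes), with a log2 fold change of 0.35 (SE 0.15), and mt-Co3 lower (0.419% of all genes), with -0.68 (SE 0.30); both have nuclear copies of nearly the same sequence, and the edgeR adjusted p was 0.99994. mt-Nd3 stood at 36.0, 54.5, 49.6 and 45.8 CPM in WT and 66.2, 61.7, 58.0 and 49.6 in WT + NR mice. mt-Co3 stood at 70.4, 140, 65.5 and 49.0 in WT and 49.0, 61.1, 45.1 and 46.6 CPM in WT + NR mice. The groups overlapped for mt-Nd3, and for mt-Co3 WT replicate 2 stood far above the others.

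Among the tRNAs 13 of 15 tested were higher with NR in WT mice (median log2 fold change 0.41), while the mRNA median was -0.06 and the rRNA median -0.09. The tRNA log2 fold changes reached 0.86 (SE 0.42) for mt-Te, 0.82 (SE 0.38) for the glycine tRNA mt-Tg and 0.62 (SE 0.35) for mt-Tl2. None of them was under unadjusted p 0.05. WT replicate 1 was the lowest WT mouse for all tRNAs tested but mt-Tl2, mt-Tn and mt-Tp. It stood at 3.45 CPM for mt-Te (6.71 to 14.6 in the other WT mice) and 0.548 for mt-Tg (1.27 to 1.89). How many tRNAs were higher with NR when this mouse was left out is not given here. The single gene whose groups did not overlap was mt-Tr, at 1.07 to 1.28 CPM with NR and 0.274 to 1.05 CPM without (0.826% of all genes did not overlap), and on unscaled CPM mt-Tg separated as well. The log2 fold change of mt-Tr was 0.57 (SE 0.41).

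Between the NR groups, hTau.P301S + NR against WT + NR, hTau.P301S replicate 1 played no part. No mitochondrial gene was called (0.0540% of all genes were). Of 30 genes tested, 19 were higher and 11 lower, with a median log2 fold change of 0.07 against -0.02 over all genes. At unadjusted p under 0.05, mt-Nd6 and mt-Tc were higher (2.42% of all genes) and mt-Tl2, mt-Te and mt-Ty lower (3.67% of all genes), and DESeq2 called 0 with 7 of 36 under unadjusted 0.05. The 7 upper mRNAs were all higher, with a median of 0.31. When hTau.P301S + NR replicate 1 or replicate 3 was left out, 6 were higher and 1 lower (medians 0.26 and 0.20). Of them, mt-Nd6 had the log2 fold change 0.44 (SE 0.19, edgeR adjusted p = 0.781), at 932, 1029, 1031 and 1187 CPM in WT + NR and 1570, 1155, 1903 and 1055 in hTau.P301S + NR mice, which overlapped.

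The plus-strand leucine tRNA mt-Tl2 stood at 18.03, 9.34, 6.07 and 9.37 CPM in WT + NR mice and at 3.14, 5.58, 4.43 and 4.76 in hTau.P301S + NR mice. The cysteine tRNA mt-Tc stood at 27.8, 25.7, 32.1 and 28.8 CPM in WT + NR and at 36.6, 39.2, 36.1 and 35.3 in hTau.P301S + NR mice. These were the only genes of the 31 kept whose groups did not overlap, mt-Tl2 below and mt-Tc above (3.77% of all genes kept did not overlap). The log2 fold change was -1.26 (SE 0.33, edgeR adjusted p = 0.757) for mt-Tl2 and 0.36 (SE 0.10, adjusted p = 0.757) for mt-Tc; the adjusted p of mt-Tl2 was 0.0716 with DESeq2. In the groups without NR, mt-Tl2 stood at 5.92, 4.59, 8.96 and 8.49 CPM in WT and 0.0855, 5.40, 6.27 and 4.21 in hTau.P301S mice, which overlapped.

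The glutamate tRNA mt-Te stood at 9.91, 12.0, 18.8 and 21.4 CPM in WT + NR and 7.35, 6.52, 4.03 and 10.2 in hTau.P301S + NR mice (log2 fold change -1.14, SE 0.33, adjusted p = 0.757). In the groups without NR it stood at 3.45, 14.6, 9.65 and 6.71 in WT and 7.86, 9.85, 9.21 and 11.2 CPM in hTau.P301S mice, which overlapped. mt-Ty stood at 5.29, 5.96, 8.88 and 6.83 CPM in WT + NR mice, and its log2 fold change in hTau.P301S + NR was -0.72 (SE 0.27, adjusted p = 0.781).

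**Figure D4:**
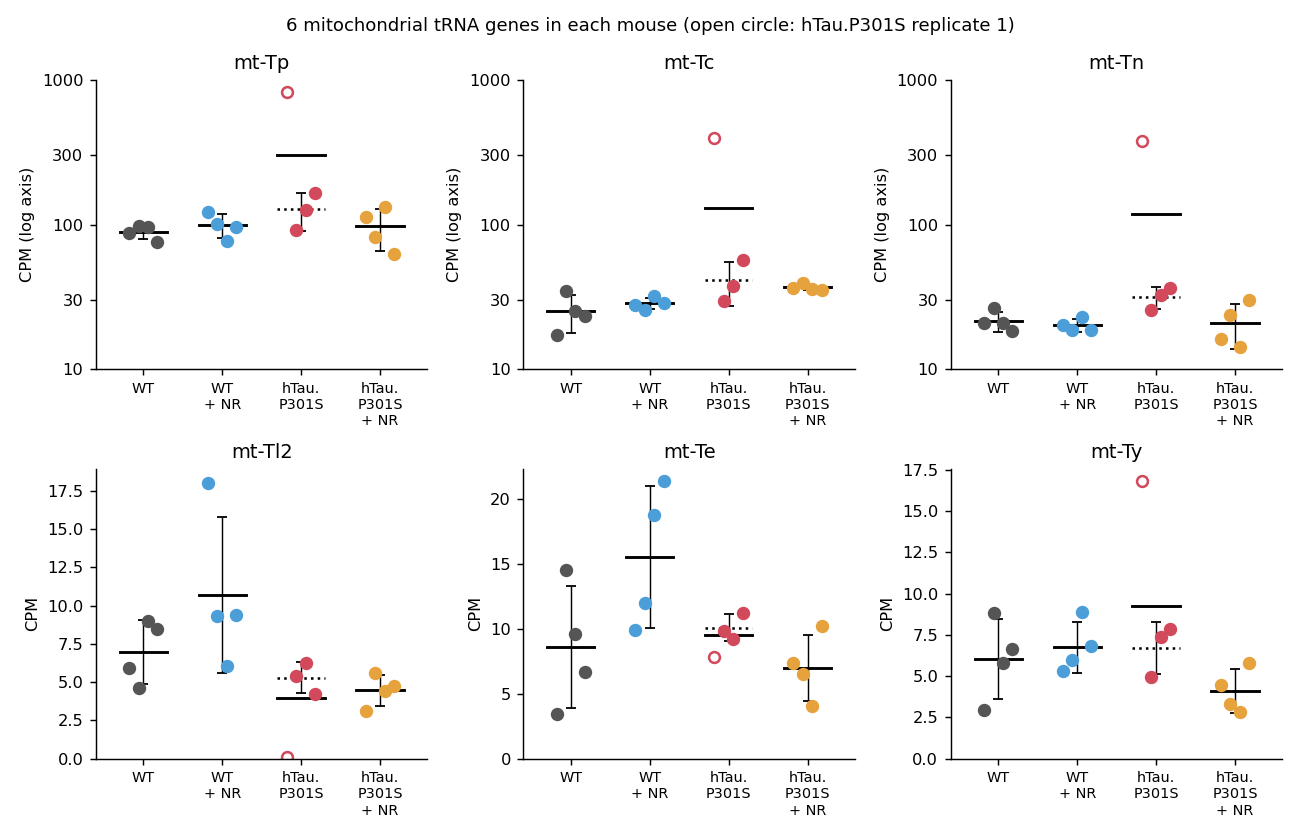
TMM-scaled CPM of 6 mitochondrial tRNAs in each mouse by group, with mt-Tp, mt-Tc and mt-Tn on log axes. Points are mice and the open circle is hTau.P301S replicate 1; solid lines are means of 4 mice, dotted lines the hTau.P301S mean without replicate 1, and bars the SD (for hTau.P301S, of the 3 mice without replicate 1). mt-Tl2 is lower in all hTau.P301S + NR mice (3.14 to 5.58) than in all WT + NR mice (6.07 to 18.03), and the open circle is highest for mt-Tp, mt-Tc and mt-Tn and lowest for mt-Tl2.

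Whether NR went with a different change in the 2 genotypes was tested by the interaction term. No mitochondrial gene passed adjusted p under 0.05 (0% of all genes did). With all mice 24 of 31 genes had a negative term, that is a lower log2 fold change with NR in the transgenic genotype, with a median of -1.04 against -0.02 over all genes, and 8 were negative at unadjusted p under 0.05 (4.63% of all genes): mt-Co2, mt-Nd3, mt-Ta, mt-Tc, mt-Te, mt-Tn, mt-Tp and mt-Ty. DESeq2 called 0 and put 6 of 36 under unadjusted 0.05. Without replicate 1 the median was -0.16 against 0.01 over all genes, and 20 of 31 were negative. At unadjusted p under 0.05, mt-Ta (-2.54, SE 1.06) and mt-Te (-1.37, SE 0.56) were negative (3.35% of all genes). edgeR and DESeq2 called 0 (0% of all genes), and DESeq2 put 2 of 36 under unadjusted 0.05. The mt-Ta term rests on few reads, with 0, 4, 2 and 2 counts in WT and 8, 14, 11 and 2 in WT + NR mice. For both genes WT replicate 1 was the lowest WT mouse.

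**Figure D5:**
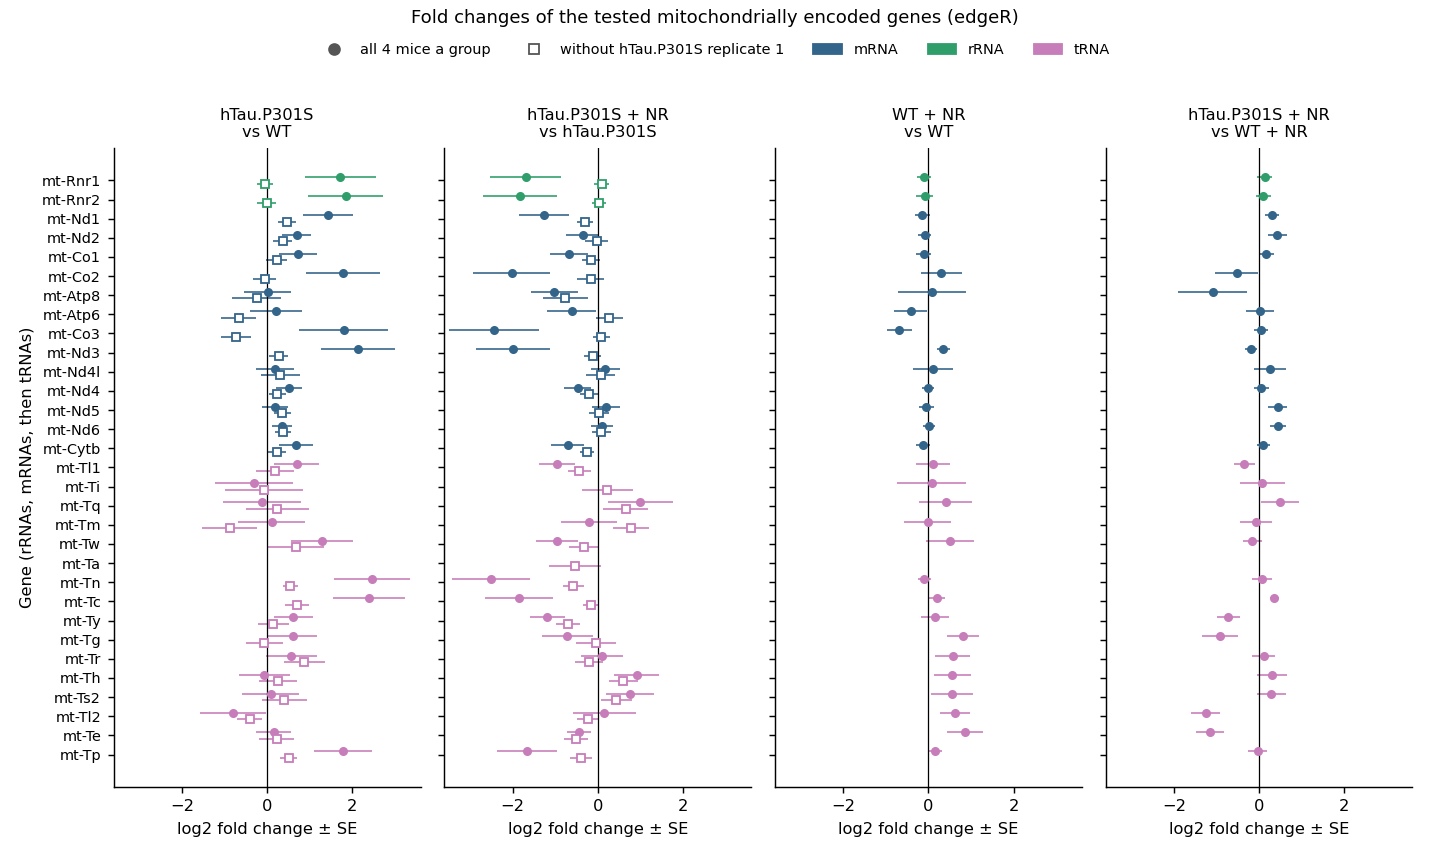
log2 fold change with its standard error (edgeR) of each tested mitochondrial gene in the 4 pairwise comparisons, with filled circles for all mice and open squares without hTau.P301S replicate 1. In hTau.P301S against WT the circles of mt-Rnr1 and mt-Rnr2 lie at 1.72 and 1.84 and the squares at -0.06 and -0.01, and in hTau.P301S + NR against hTau.P301S the circles lie at -1.70 and -1.83 and the squares at 0.09 and 0.03.

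A ratio within the mouse also differed between hTau.P301S mice without replicate 1 and WT mice. The genes mt-Rnr2 and mt-Nd1 lie on the plus strand with mt-Tl1 between them. The ratio of mt-Rnr2 to mt-Nd1 counts was 0.553 to 0.613 in hTau.P301S replicates 2 to 4 and 0.593 to 0.981 in hTau.P301S + NR mice. It was 0.757 to 0.905 in WT and 0.769 to 1.06 in WT + NR mice, while hTau.P301S replicate 1 stood at 1.41. The 3 mice thus lay below all WT and WT + NR mice and replicate 1 above all 15 others, on opposite sides, and the group of 4 did not separate. This ratio was chosen after its values were seen.

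The mitochondrially encoded subunits work in complexes with subunits encoded in the nucleus, of which 83 of 85 listed were tested. Their direction differed from that of the mitochondrial mRNAs once replicate 1 was left out: against WT, 16 were higher and 67 lower in hTau.P301S mice (median log2 fold change -0.24), whereas with all mice 80 were higher and 3 lower (median 1.15), none called. In replicate 1, 78 of the 83 (93.98%) lay above all 15 other mice, against 31.8% of all genes kept, and on unscaled CPM 76 lay above and 2 below. Their summed CPM was 60801 against 7801 to 13993. In hTau.P301S + NR against WT + NR, 7 were higher and 76 lower (median -0.25), with 16 lower at unadjusted p under 0.05 (3.67% of all genes) and 0 called. The complex I subunit Ndufa1 was the one with the smallest p in that comparison, at 37.9 ± 7.57 CPM in WT + NR and 19.9 ± 5.69 in hTau.P301S + NR mice (SD, n = 4), so that the log2 fold change was -0.92 (SE 0.22, edgeR adjusted p = 0.662). With NR in hTau.P301S mice, 0 were higher and 83 lower with all mice (median -1.58, 36 lower at unadjusted p under 0.05, against 7.01% of all genes). Without replicate 1, 11 were higher and 72 lower (median -0.17, 12 lower at unadjusted p under 0.05, against 7.40% of all genes), and none was called in either setting. Atp5g1, a subunit of ATP synthase, had a log2 fold change of -1.64 (SE 0.58, edgeR adjusted p = 0.367) in this comparison with all mice and -0.57 (SE 0.12, adjusted p = 0.0755) without replicate 1.

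Of 58 nuclear genes that transcribe, process or translate mitochondrial RNA, 46 were higher and 12 lower in hTau.P301S mice relative to WT (median log2 fold change 0.18), and 28 and 30 without replicate 1 (median -0.02); none was called. With NR in hTau.P301S mice 10 were higher and 48 lower (median -0.22), and 21 and 37 without replicate 1 (median -0.05). Medians lay at -0.03 for NR in WT mice and -0.02 for hTau.P301S + NR against WT + NR. Mtpap, the mitochondrial poly(A) polymerase, which bears on what oligo(dT) captures, stood at 19.7 ± 1.55 CPM in WT (n = 4) and 25.4 ± 3.33 in hTau.P301S mice without replicate 1 (SD, n = 3), a log2 fold change of 0.36 (SE 0.14, edgeR adjusted p = 0.406), against 0.34 (SE 0.17) with all mice. Ssbp1, the mitochondrial single-stranded DNA binding protein, stood at 15.1 ± 1.98 and 9.69 ± 1.29 CPM, a log2 fold change of -0.65 (SE 0.18, adjusted p = 0.314), and it had the opposite sign with all mice, 0.29 (SE 0.53).

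Markers of cell types and nuclear long noncoding RNAs differed with these libraries and groups. All 7 hippocampal neuron markers were detected in every mouse. In hTau.P301S replicate 1 the summed CPM of the 5 oligodendrocyte markers was 9026, against 2567 to 8643 in the other 15 mice, and that of the 5 microglia markers was 583, against 258 to 517. The 9 choroid plexus markers ranged from 120 to 14431 CPM over the other 15 mice and the 6 striatal neuron markers from 65.3 to 1464, with replicate 1 at 230 and 127; the choroid plexus marker Kcnj13 was at 0 in at least 1 mouse. Astrocyte (1645 CPM), endothelial (72.9 CPM) and hippocampal neuron markers (2355 CPM) of replicate 1 lay within the range of the others. These positions hold for scaled CPM, in which the TMM factor of replicate 1 (0.685, against 0.955 to 1.10) raises its sums. On unscaled CPM all its marker sums would be lower relative to the other mice. Which of them would then lie above, within or below the range was not computed. Between hTau.P301S mice without replicate 1 and WT mice, all 6 striatal markers (median log2 fold change -2.50, 3 at unadjusted p under 0.05), all 9 choroid plexus markers (-0.73, 0 at p under 0.05) and all 4 endothelial markers (-0.92, 3 at p under 0.05) were lower. The summed striatal markers overlapped, at 74.2 to 130 CPM in these hTau.P301S mice and 72.6 to 1464 CPM in WT mice. The WT median was 112 CPM, far below the WT maximum. In the same comparison, all 5 oligodendrocyte markers (0.50, 1 at p under 0.05) and all 5 microglia markers (0.12, 2 at p under 0.05) were higher, as were 4 of 5 astrocyte (0.20) and 5 of 7 hippocampal neuron markers (0.50). None of the markers was called, and 5.16% of all genes were higher at unadjusted p under 0.05. With all mice the medians were -2.51 for the striatal, -1.01 for the endothelial, 0.69 for the oligodendrocyte, 0.48 for the microglia, 0.20 for the hippocampal neuron and -0.09 for the astrocyte markers, the last with the opposite sign, and -1.11 for the 8 choroid plexus markers tested. With NR in hTau.P301S mice without replicate 1, all 6 striatal markers (1.70, 5 at p under 0.05) and all 4 endothelial markers (0.61, 2 at p under 0.05) were higher, against 6 (1.70) and 3 (0.83) with all mice, none called. The striatal sum was 69.9 to 509 CPM (median 135) in hTau.P301S + NR mice, which overlapped the hTau.P301S mice. The 5 nuclear long noncoding RNAs summed to 483 to 1163 CPM in hTau.P301S and 629 to 4707 in WT mice. All 5 were lower relative to WT, with a median log2 fold change of -2.16 with all mice (4 at unadjusted p under 0.05) and -2.05 without replicate 1 (5 at p under 0.05), none called. With NR in hTau.P301S mice all 5 were higher, with a median of 0.69 with all mice (3 at p under 0.05, none called) and 1.17 without replicate 1 (5 at p under 0.05), where Meg3 was called (log2 fold change 1.39, SE 0.18, edgeR adjusted p = 0.0381). The part of these differences in the levels of the mitochondrial genes was not tested. For genes lower than in WT, or higher with NR in hTau.P301S mice, the share of all genes under p 0.05 is not given here. The counts of markers and long noncoding RNAs in these directions have no such share beside them.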

How the data were processed

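Hippocampal RNA of 16 mice (4 groups of 4) was sequenced after oligo(dT) selection. The authors trimmed reads with Trim Galore, checked them with FastQC, aligned them to mm10 with STAR and counted with RSEM, and deposited 1 table of whole-number counts per gene, with gene lengths; versions and the handling of reads matching several places are not given in the sources used here. Groups came from the sample titles. Replicates are separate mice, and nothing further is stated of their origin.

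Counts were analysed in edgeR 4.0.16 (R 4.3.3): filterByExpr, TMM, and quasi-likelihood tests fitted on all genes of the groups compared, with Benjamini-Hochberg adjustment over all genes tested. A gene was called at adjusted p under 0.05 and absolute log2 fold change above 0.5, for the interaction at adjusted p alone. DESeq2 1.42.0 (tested without the filter) was an alternative. The code was tested on simulated data. Gene positions and sequences came from GENCODE M21 (GRCm38); nuclear matches were exact 50-base windows in annotated transcripts. Named were all mt- genes, with full statistics for those called or under unadjusted p 0.05, and in the 2 lists of nuclear genes those of smallest p. The members, the gene lists and the ratios were chosen with earlier results of these data known.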

Additional observations from a re-analysis of the deposited data

Results flagged for a closer look

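In a group of 4 mice, a value was singled out where its distance to the nearest other mouse was a larger part of the range than Dixon's test allows. Of 136 groups tested, 21 values were singled out, where chance alone gives about 5%, and 14 of the 21 were hTau.P301S replicate 1. In that mouse they were the rRNA share of counts (5.31%), the tRNA share (0.114%) and the CPM of mt-Rnr1 (29646), mt-Rnr2 (47925), mt-Nd1 (34037), mt-Co2 (1151), mt-Atp6 (279), mt-Co3 (961), mt-Nd3 (635), mt-Tn (375), mt-Tc (396), mt-Tp (827), mt-Tm (3.76) and mt-Tg (4.27). The mRNA share of this mouse (9.01%) was not among them. In the other hTau.P301S mice, replicate 4 was far above the rest for mt-Nd6 (1736 CPM) and mt-Ti (1.44 CPM).

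Of the remaining values, mt-Ti had no count in WT replicate 1 (0 CPM). WT + NR replicate 1 stood apart in its tRNA share (0.0234%) and in mt-Atp8 (4.11 CPM), WT + NR replicate 2 in mt-Nd4l (34.0 CPM) and WT + NR replicate 4 in mt-Co2 (294 CPM), 2 of these being mRNAs with near-complete nuclear matches.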

How the results depend on the processing

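No mitochondrial gene was called under any alternative run, which were DESeq2, its size factors, scaling by nuclear genes alone, no filter, a replicate block, all groups in 1 fit, and leaving out each mouse. DESeq2 and the scaling by nuclear genes without hTau.P301S replicate 1 were chosen after seeing the data. Of the named genes' log2 fold changes 25 turned sign and 373 did not, and the smallest adjusted p of mt-Tl2 over its alternatives in hTau.P301S + NR against WT + NR was 0.0716 and the largest 0.99999. Without the filter the median of all genes in hTau.P301S against WT was -0.13 with edgeR and with DESeq2, against 0.02. Without hTau.P301S replicate 1, by edgeR, DESeq2 and nuclear scaling in that order, hTau.P301S against WT gave -0.057, -0.055 and -0.063 for mt-Rnr1 and -0.0095, -0.0079 and -0.016 for mt-Rnr2. NR in hTau.P301S mice gave 0.086, 0.076 and 0.080 for mt-Co3, 0.089, 0.079 and 0.082 for mt-Rnr1 and 0.025, 0.015 and 0.019 for mt-Rnr2. The interaction gave 0.77, 0.77 and 0.77 for mt-Co3, 0.19, 0.19 and 0.19 for mt-Rnr1 and 0.115, 0.114 and 0.109 for mt-Rnr2. Leaving out each mouse in turn, the ranges for hTau.P301S against WT were -0.057 to 2.01 (mt-Rnr1) and -0.0095 to 2.14 (mt-Rnr2), for NR in hTau.P301S mice -2.79 to 0.086 (mt-Co3), -1.99 to 0.089 (mt-Rnr1) and -2.14 to 0.025 (mt-Rnr2), and for the interaction -2.13 to 0.77 (mt-Co3), -1.88 to 0.19 (mt-Rnr1) and -2.04 to 0.12 (mt-Rnr2). For hTau.P301S + NR against WT + NR, mt-Rnr1 ran from -0.030, without hTau.P301S + NR replicate 2, to 0.21. With mt-Co1 left out of the sum, mt-Nd1 made up 28.8% of mRNA counts in hTau.P301S, 21.6% in hTau.P301S + NR, 21.4% in WT and 20.8% in WT + NR mice, against 17.1, 12.9, 12.4 and 12.1% with it, since the sum is smaller.

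Replicate numbers name different animals. With the replicate number as a block, 0 mitochondrial genes were called in each of the 5 comparisons, and 0 (hTau.P301S against WT), 2 (NR in hTau.P301S), 2 (NR in WT), 5 (hTau.P301S + NR against WT + NR) and 2 (interaction) lay under unadjusted p 0.05. Deviations from group means correlated by a median of -0.042 (-0.556 to 0.452) between libraries of the same number and -0.019 (-0.585 to 0.619) between libraries of different numbers, and 5 of 16 libraries correlated best with one of their own number. Depth limits what can be said of the low-count tRNAs, since 3 counts amount to 0.171 unscaled CPM in WT replicate 1 and 0.175 in hTau.P301S replicate 1.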
